A study of Mus musculus with 21 samples.

Results

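The matrix metalloproteinases (MMPs), the ADAMTS proteases with their protease-free ADAMTS-like relatives, and the tissue inhibitors of metalloproteinases (TIMPs) were examined in kidney RNA-seq of adenine-fed mice. Members were chosen by gene symbol alone: Mmp, Adamts, Adamtsl or Timp followed by its number. This gave 51 genes, made up of 23 MMPs, 19 ADAMTS genes, 5 ADAMTS-like genes and 4 TIMPs. Of these, 48 could be linked to an identifier and 47 were present in both count tables, which share 20634 genes. Mmp1a, Mmp1b and Adamts19 had no identifier and were not analysed here. Adamts18 was linked only to the normalized table, where it had at most 4 reads in a mouse and reads in 8 of 12 mice.

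All animals were female apolipoprotein E knockout (apoE KO) mice on a C57BL/6J background, a strain that becomes hyperlipidemic without a special diet. They were put on their diets at 4 weeks of age, fed for 14 weeks and studied at 18 weeks of age. The control group (Con, 5 mice) received chow, the adenine group (Ade, 6 mice) chow with 0.2% adenine, and the Ade + IMC group (6 mice) chow with 0.2% adenine and 0.06% iodomethylcholine. Iodomethylcholine (IMC) inhibits the enzyme with which gut bacteria turn choline into trimethylamine, and the adenine diet is a model of chronic kidney disease. A further 4 mice that received IMC in control chow were not analysed here, so an effect of IMC without adenine was not examined. Both adenine-fed groups are compared with the same 5 Con mice.

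MMPs are zinc-dependent proteases that are made as inactive precursors and cut collagens, gelatin, proteoglycans and other matrix and cell surface proteins. ADAMTS enzymes carry thrombospondin repeats that hold them in the matrix, and cut proteoglycans, procollagens or von Willebrand factor. TIMPs are small proteins that bind the active site of these enzymes, and Timp3, which is held in the matrix, also inhibits several ADAMTS enzymes. In the fibrotic kidney this family is known both for breaking matrix down and for releasing growth factors and cytokines from it.

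Libraries held 7716126 to 11680809 counted reads in Con, 5444833 to 7673215 in Ade and 5728589 to 8305968 in Ade + IMC mice. Levels are given as CPM, the reads of a gene scaled to the total of its library after correction by its TMM factor (edgeR), on 1 scale for all 17 mice, and a gene is said to have risen or fallen at an adjusted p below 0.1. Havcr1, a marker of tubular injury, was read as a check of the diet labels and stood at 0.135 to 0.915 CPM in Con, 74.3 to 267 in Ade and 21.8 to 218 CPM in Ade + IMC mice. All 8 proximal tubule markers were present, with a summed level of 15172 to 21040.1 CPM in Con, 2465 to 8884 in Ade and 3831 to 7932 CPM in Ade + IMC mice. The summed levels of 7 macrophage markers were 197 to 237, 1296 to 2091 and 1169 to 1967 CPM, and those of 7 fibroblast and myofibroblast markers 292 to 359, 1325 to 1639.6 and 1173 to 1767 CPM in the same order. In whole kidney, fewer cells of a type and less RNA per cell cannot be told apart.

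Of the linked MMP genes, 8 (Mmp13, Mmp12, Mmp3, Mmp10, Mmp8, Mmp27, Mmp20 and Mmp7, in this order) lie within 427 kb of chromosome 9 (chr9:7272514-7699585, GRCm38). The cluster holds Mmp7, Mmp3 and Mmp12, the 3 MMPs with the largest differences between Ade and Con mice, next to Mmp13, which did not pass the test. The 120 bases before a start site in RefSeq (GRCm38.p6) are shown for 6 genes of the cluster that share a motif, all on the plus strand, with the start site that has the motif where RefSeq gives 2 (Mmp7 and Mmp12). Capitals mark TGANTCA, the motif bound by Fos and Jun proteins of the AP-1 family, and TATAAA, the TATA box.
Mmp7 (chr9:7691970-7692089): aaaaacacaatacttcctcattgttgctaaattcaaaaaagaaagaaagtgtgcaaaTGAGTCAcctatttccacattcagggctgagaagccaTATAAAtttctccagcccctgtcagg
Mmp12 (chr9:7347254-7347373): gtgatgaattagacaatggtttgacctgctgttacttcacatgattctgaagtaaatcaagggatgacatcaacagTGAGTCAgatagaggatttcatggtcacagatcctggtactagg
Mmp3 (chr9:7445702-7445821): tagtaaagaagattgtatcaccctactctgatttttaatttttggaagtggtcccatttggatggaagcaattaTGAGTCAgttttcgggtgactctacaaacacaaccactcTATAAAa
Mmp10 (chr9:7502222-7502341): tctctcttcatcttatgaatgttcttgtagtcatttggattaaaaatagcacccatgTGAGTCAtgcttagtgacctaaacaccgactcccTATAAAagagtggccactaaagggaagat
Mmp13 (chr9:7272394-7272513): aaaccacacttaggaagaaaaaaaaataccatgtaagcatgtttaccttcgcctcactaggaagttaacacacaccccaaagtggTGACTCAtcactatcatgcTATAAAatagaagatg
Mmp20 (chr9:7628111-7628230): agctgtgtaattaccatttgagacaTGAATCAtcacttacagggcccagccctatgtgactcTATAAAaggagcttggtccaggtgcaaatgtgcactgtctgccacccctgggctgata
The windows searched ran from 250 bases before to 50 bases after a start site, on both strands, with TGANTCA reading the same on either strand. There were 39 such windows for 36 of the 51 genes, and 8 of the 39 held TGANTCA, against 7.81% of 32851 windows of all genes. These 8 windows belonged to Mmp7, Mmp12, Mmp3, Mmp10, Mmp13, Mmp20, Mmp1a and Mmp1b, all of them on chromosome 9 in the same cluster. The motif began 63 bases before the start site in Mmp7 and Mmp10, 46 in Mmp3, 44 in Mmp12, 35 in Mmp13 and 95 bases in Mmp20. TATAAA was found in 12 of the 39 windows, against 13.6% of all windows, and AGGAAG, a core read by Ets proteins, in 16 of the 39, against 35.4%. A match describes the letters of the window and is no measure of binding. The genes with the motif did not behave alike, since Mmp13 did not rise and Mmp20 had at most 3 reads in a mouse.

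Adenine feeding was accompanied by higher levels of most measured members. Of 36 members with enough reads to be tested between Ade and Con mice, 29 rose, 2 fell and 5 did not pass the test (edgeR quasi-likelihood test, adjusted over 14612 genes). Passing the test was common in these kidneys, with 67.3% of all tested genes called, 35.1% higher and 32.2% lower, and the members that passed lay mostly on the higher side. The median log2 fold change was 1.69 over the 36 members and 0.02 over all tested genes. Setting Mmp7 to its lower bound could not move this median, since Mmp7 lies above it either way. The Ade and Con mice did not overlap in 27 of the 36, against 43.0% of all tested genes. Of the 36, 6 (Adamts17, Mmp19, Mmp25, Mmp3, Mmp7 and Timp1) had under 10 reads in every Con mouse and so were tested only because of their reads in adenine-fed mice.

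**Figure D1:**
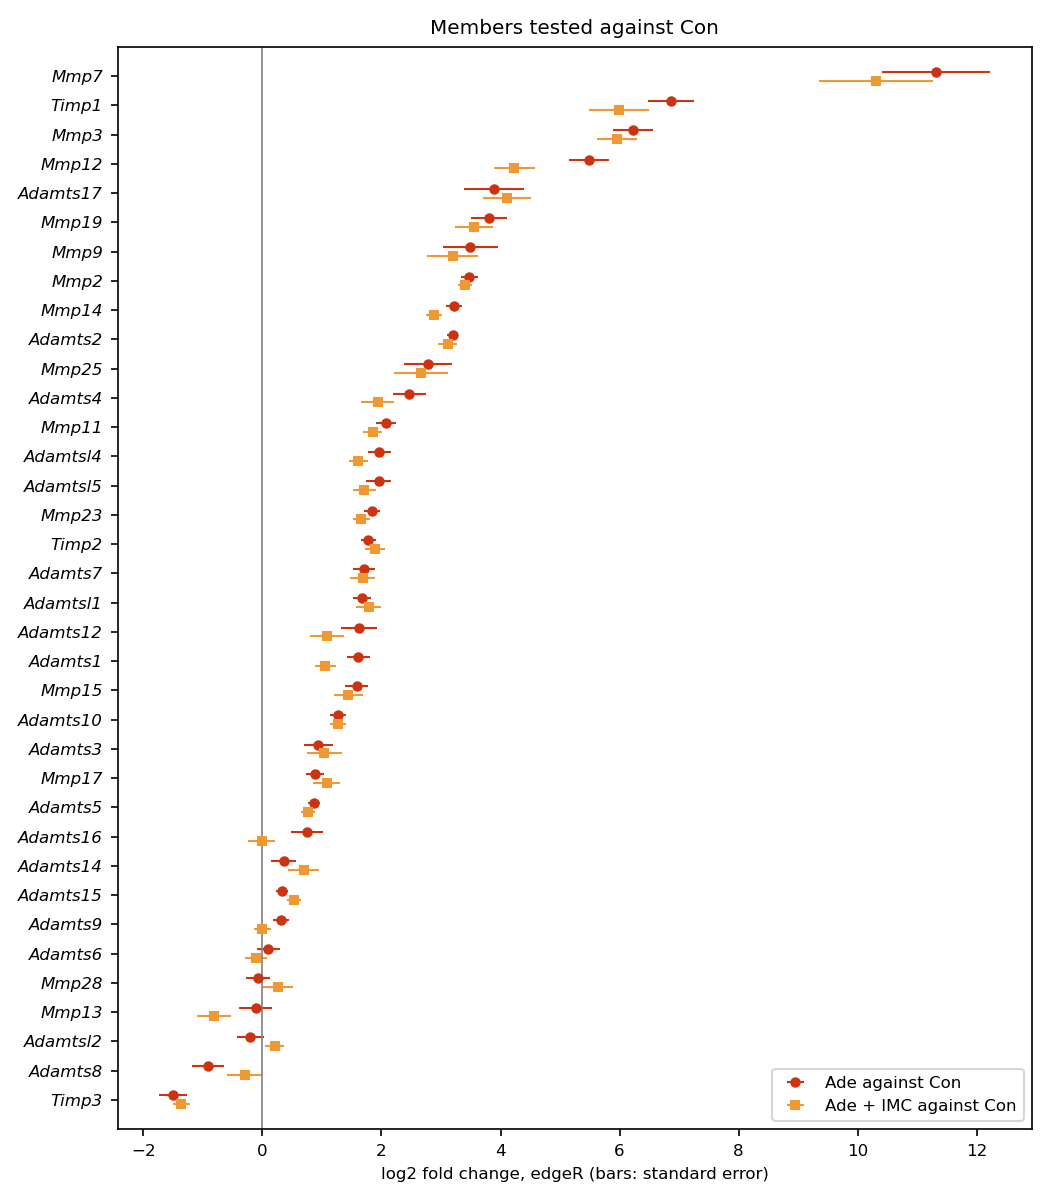
Log2 fold changes of the 36 tested members against the 5 Con mice (x axis) for the 6 Ade mice (circles) and the 6 Ade + IMC mice (squares), from edgeR, with bars of 1 standard error. Most members sit to the right of 0 in both comparisons and Timp3 to the left in both; the point for Mmp7 depends on how 0 reads in Con are treated and is no estimate of its fold.

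The TIMPs, the inhibitors of the family, changed in opposite directions. Timp1 (chrX:20870166-20874735, GRCm38), the inducible secreted TIMP, was close to the counting limit in Con mice, at 0.404, 0.433, 0.271, 0.649 and 0.653 CPM. In Ade mice it ranged from 31 to 93.7 CPM with a median of 54.9, and in Ade + IMC mice from 14.3 to 53.9 with a median of 29.2. Every adenine-fed mouse lay above every Con mouse, and the log2 fold change of Ade against Con was 6.86 ± 0.39 (SE; edgeR, adjusted p = 1.75e-08), or 117-fold.

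Timp2 (chr11:118301069-118355740), which is made by many cell types and also takes part in activating pro-MMP2, stood at 81.6, 104, 116, 71.6 and 84.5 CPM in Con. Its median was 305 CPM in Ade (273 to 348) and 341 CPM in Ade + IMC mice (260.0 to 447). It rose with a log2 fold change of 1.78 ± 0.13 in Ade (edgeR, adjusted p = 1.51e-07), and no adenine-fed mouse overlapped with Con.

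Per kilobase of exon, the highest level of all members in Con kidney was that of Timp3 (chr10:86300372-86349506), the matrix-bound TIMP, with a mean of 184 CPM per kilobase, followed by Timp2 with 23.5 and Adamts1 with 13.0. In CPM, Timp3 stood at 1724, 1378, 1218, 1833 and 1354 in Con. It was lower in every adenine-fed mouse, with 265 to 801 CPM (median 552) in Ade and 500.1 to 758 CPM (median 574) in Ade + IMC mice. The log2 fold change of Ade against Con was -1.50 ± 0.24 (edgeR, adjusted p = 0.000106), a fall to 0.353 of the Con level. Among Ade mice, 407, 409 and 408 had the 3 highest Timp3 levels (801, 612 and 596 CPM) and also the 3 highest summed levels of the proximal tubule markers (8884, 4663 and 5624 CPM). Mice 207, 208 and 308 were lower in both, with 509, 354 and 265 CPM for Timp3 and 2549, 2465 and 3878 CPM for the markers. Podocyte markers split the Ade mice alike, at 841 to 931 CPM in 407, 408 and 409 against 268 to 503 CPM. So did thick ascending limb markers (5016 to 6052 against 2537 to 4914 CPM) and endothelium markers (376 to 452 against 240 to 324 CPM). Collecting duct markers did not, with 169 CPM in mouse 409 and 183 CPM in mouse 308. The part of cell composition in the level of Timp3 was not tested. Of the 8144 exon bases of Timp3, 1733 overlap with Syn3 on the other strand, and the strand setting of the counting is not given in the sources used here.

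Timp4 had few reads. Its level was at most 0.523 CPM in Con and 0.795 CPM in Ade mice, and it was not tested. In Ade + IMC mice it ranged from 0 to 1.15 CPM in 5 animals and stood at 3.71 CPM (31 reads) in mouse 212, which also had the highest summed level of 4 adipocyte markers, 281 CPM against at most 70.6 CPM in any other mouse. The part of fat tissue in this value was not tested.

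The make-up of the inhibitor pool, as shares of TIMP reads per kilobase of exon, differed between the groups. Timp3 held 88.1% ± 3.56 (SD, n = 5) of the pool in Con, 30.6% ± 10.2 (n = 6) in Ade and 37.0% ± 5.26 (n = 6) in Ade + IMC mice. The share of Timp2 was 11.6% ± 3.59 in Con, 38.3% ± 3.66 in Ade and 44.8% ± 8.05 in Ade + IMC mice. Timp1 went from 0.261% ± 0.0878 in Con to 31.1% ± 12.1 in Ade and 18.0% ± 9.35 in Ade + IMC mice. The highest Con share of Timp1 was 0.39%, far below every adenine-fed mouse, and the 2 adenine-fed groups overlapped, with 16.2% to 47.9% in Ade and 8.58% to 29.9% in Ade + IMC mice. Without the correction for length the mean Timp1 share was 0.0303%, 7.07% and 3.39% in the 3 groups, since the exons of Timp1 (888 bases) are much shorter than those of Timp3. Shares were described and not tested.

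**Figure D2:**
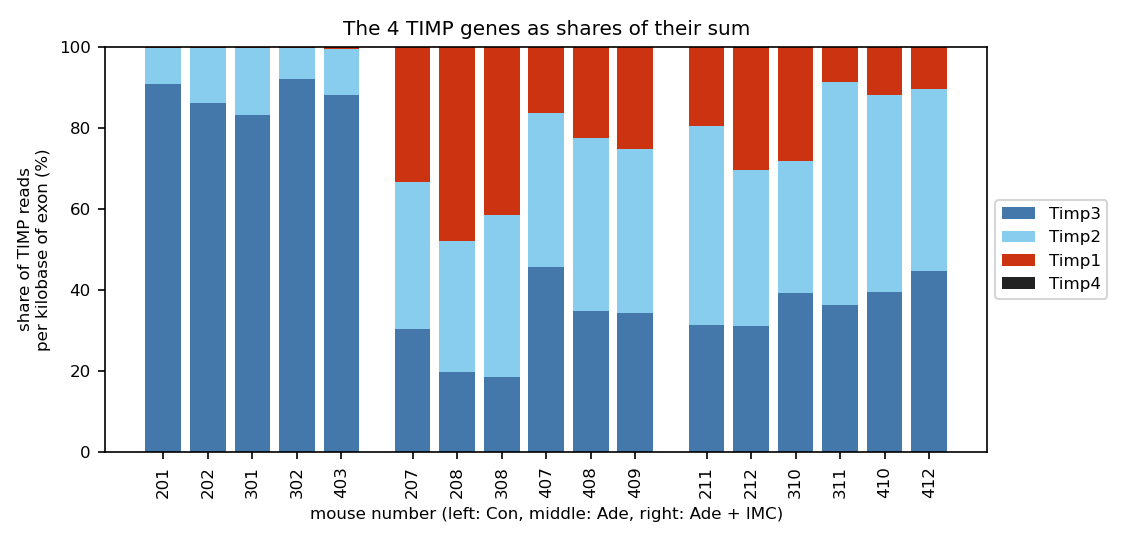
Stacked bars give, for each mouse (x axis), the share in percent of the summed TIMP reads per kilobase of exon held by Timp3, Timp2, Timp1 and Timp4 (y axis, 0 to 100). Timp3 takes 83.3% to 92.2% of the bar in the 5 Con mice and at most 45.7% in the 12 adenine-fed mice, where Timp1 and Timp2 fill the rest; Timp4 is too small to see.

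Mmp7, Mmp3 and Mmp12 had the largest rises among the proteases. Mmp7, or matrilysin, a small epithelial protease that cuts E-cadherin and matrix proteins, had 0 reads in every Con mouse, 13.4 to 60.3 CPM (median 39) in Ade and 9.02 to 42.1 CPM (median 15.3) in Ade + IMC mice. Set against a floor of 3 reads over the 5 Con libraries, its mean was at least 537-fold higher in Ade and at least 274-fold higher in Ade + IMC mice (edgeR, adjusted p = 4.78e-06 and 2.2e-05). Mmp12, macrophage elastase, measured 2.22, 3.03, 3.11, 4.68 and 2.74 CPM in Con, 61.0 to 221 CPM (median 144) in Ade and 33.0 to 101 CPM (median 60.8) in Ade + IMC mice. The log2 fold change of Mmp12 was 5.49 ± 0.34 in Ade (edgeR, adjusted p = 3.63e-08), and all adenine-fed mice lay far above Con. Of the exon bases of Mmp12, 157 overlap with Mmp1b, and of those of Mmp7, 123 with AV064505, both on the other strand. The 7 macrophage markers rose together with Mmp12, with a median log2 fold change of 3.37. Among Ade mice, 407 was lowest in both, with a marker sum of 1296 CPM and 61.0 CPM for Mmp12. Among Ade + IMC mice, 311 had the highest marker sum (1967 CPM) and the lowest Mmp12 (33.0 CPM). The part of macrophages in the level of Mmp12 was not tested.

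Of the stromelysins, Mmp3, which cuts proteoglycans and activates other MMPs, stood at 0.202, 0.578, 0.677, 0.130 and 0.131 CPM in Con. It reached 19.6 to 37.4 CPM (median 23.3) in Ade and 17.4 to 31.9 CPM (median 20.1) in Ade + IMC mice, a log2 fold change of 6.23 ± 0.33 in Ade (edgeR, adjusted p = 1.27e-08). Mmp11, a stromelysin typical of stromal cells, went from 9.48 to 19.6 CPM in Con to 47.3 to 73.8 CPM in Ade, a log2 fold change of 2.07 ± 0.17. The third, Mmp10, had 0 reads in all Con mice and 1 to 4 reads in each Ade mouse, and was not tested.

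The gelatinases, which cut denatured collagen and basement membrane, both rose. Mmp2 measured 4.84, 7.08, 6.37, 7.14 and 7.71 CPM in Con against 59.9 to 88.4 CPM (median 72.3) in Ade and 61.1 to 79.9 CPM (median 72.4) in Ade + IMC mice. The spread was small in each group, and the log2 fold change was 3.47 ± 0.14 in Ade (edgeR, adjusted p = 1.94e-09). Mmp9 measured 0.202, 0.722, 0.271, 1.17 and 1.44 CPM in Con, 2.98 to 12.5 CPM (median 8.36) in Ade and 4.20 to 10.9 CPM (median 7.04) in Ade + IMC mice. Its log2 fold change in Ade was 3.49 ± 0.46, and the lowest Ade value was that of mouse 407.

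Among the membrane-anchored MMPs all 5 tested members rose in Ade, where 35.1% of all tested genes were higher. Mmp14, which activates pro-MMP2 at the cell surface together with Timp2, measured 16.0, 20.2, 20.9, 22.1 and 17.4 CPM in Con, 131 to 211 CPM (median 181) in Ade and 117 to 172 CPM (median 148) in Ade + IMC mice. The log2 fold change of Mmp14 was 3.22 ± 0.13 (edgeR, adjusted p = 2.14e-09). Mmp25, an MMP known from neutrophils, rose by 2.79 ± 0.41, Mmp23 by 1.84 ± 0.13, Mmp15 by 1.58 ± 0.19 and Mmp17 by 0.88 ± 0.15 on the log2 scale. Mmp16 and Mmp24 had at most 11 and 19 reads in a mouse and were not tested.

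Mmp2, Mmp14 and Timp2, the 3 genes of the activation complex of MMP2, thus rose in the same mice, as did the 7 fibroblast and myofibroblast markers (median log2 fold change 1.94), whose part in these levels was not tested.

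Of the collagenases, which make the first cut in fibrillar collagen, Mmp13 alone had enough reads to be tested, and it did not pass the test in Ade. Mmp13 was at 2.93, 3.90, 3.25, 2.21 and 2.74 CPM in Con and 1.22 to 4.19 CPM (median 2.96) in Ade, a log2 fold change of -0.11 ± 0.28 (edgeR, adjusted p = 0.746). In Ade + IMC mice Mmp13 ranged from 0.733 to 2.74 CPM (median 1.68), and was lower than in Con by this test, with a log2 fold change of -0.82 ± 0.29 (edgeR, adjusted p = 0.0285), although the 2 groups overlapped. Mmp8, the neutrophil collagenase, had 2 reads in 1 of 5 Con mice and 36 reads spread over 6 of 6 Ade mice, at most 10 in a mouse. These were too few to be tested, but the 2 groups did not overlap, with means of 0.052 CPM in Con and 0.787 CPM in Ade. The 4 of 6 neutrophil markers present in the tables summed to 1.44 to 3.38 CPM in Con and 20.2 to 38.4 CPM in Ade, while Mpo and Elane were not analysed here. Of the other MMPs, Mmp19 rose by 3.81 ± 0.30 on the log2 scale in Ade, Mmp28 had a log2 fold change of -0.07 ± 0.20 that did not pass the test, and Mmp20, Mmp21 and Mmp27 had at most 3, 6 and 14 reads in a mouse. A part of the exons of Mmp19 and Mmp28 overlaps with other genes on the opposite strand.

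**Figure D3:**
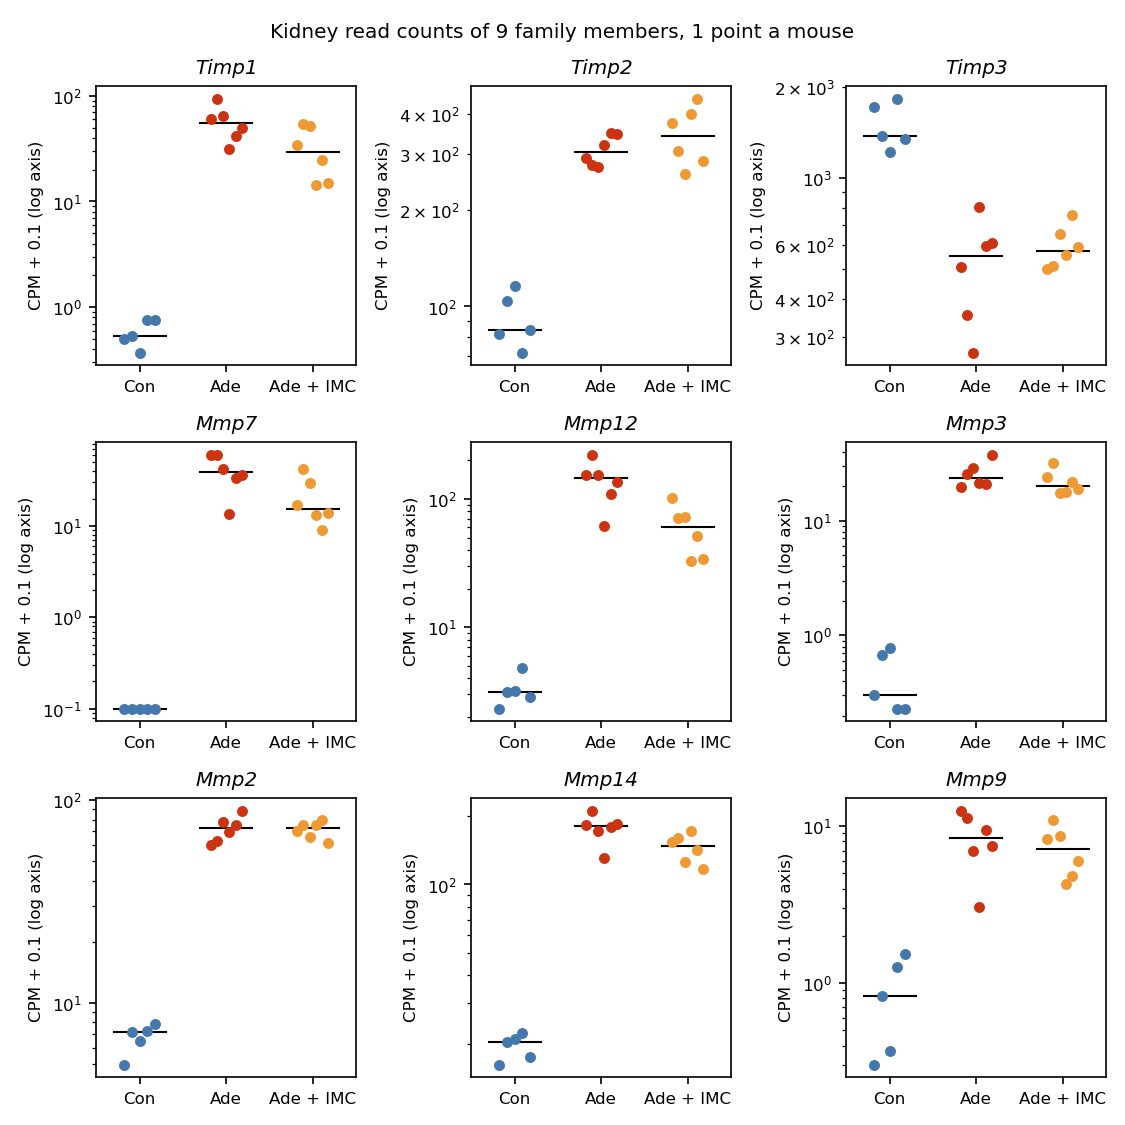
Levels of 9 members in CPM plus 0.1 on a log axis, with 1 point for each of the 5 Con, 6 Ade and 6 Ade + IMC mice and a line at the group median. Timp3 is the only one of the 9 panels with adenine-fed mice below Con; Mmp7 has 0 reads in all 5 Con mice, drawn at 0.1.

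Of the ADAMTS genes, 12 of 15 tested rose in Ade, 1 fell and 2 did not pass the test. Of all tested genes, 35.1% were higher and 32.2% lower in Ade. The procollagen N-proteinases trim the amino-terminal end of fibrillar procollagens. Adamts2 measured 5.95, 6.64, 6.77, 7.92 and 7.19 CPM in Con, 56.0 to 66.9 CPM (median 63.1) in Ade and 45.6 to 76.5 CPM (median 61.4) in Ade + IMC mice. With a log2 fold change of 3.20 ± 0.10 (edgeR, adjusted p = 3.54e-10), it had the smallest standard error of all tested members in this comparison, and no adenine-fed mouse came near Con. The related Adamts3 rose by 0.94 ± 0.25 on the log2 scale, and Adamts14 had a log2 fold change of 0.36 ± 0.21 (edgeR, adjusted p = 0.149).

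The proteoglycan-cleaving members cut aggrecan and versican. Adamts1 went from 54.4 to 92.3 CPM in Con to 133 to 299 CPM in Ade and 101 to 205 CPM in Ade + IMC mice, and Adamts4 from 1.72 to 4.81 CPM in Con to medians of 13.7 CPM in Ade and 9.26 CPM in Ade + IMC mice, none of which was below 6.92 CPM. They rose in Ade by 1.61 ± 0.19 and 2.47 ± 0.27 on the log2 scale, and neither overlapped with Con. Adamts5 rose by 0.87 ± 0.10, Adamts15 by 0.33 ± 0.10 and Adamts9 by 0.31 ± 0.13, and the last of these lost its call without Con mouse 202 or 301 (adjusted p = 0.118 and 0.121).

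Adamts8, a proteoglycan-cleaving member also known as an inhibitor of angiogenesis, was the only ADAMTS gene that fell. It measured 11.8, 5.78, 3.39, 5.20 and 6.27 CPM in Con, 2.80 to 4.33 CPM (median 3.15) in Ade and 3.35 to 7.77 CPM (median 5.14) in Ade + IMC mice. The log2 fold change in Ade was -0.91 ± 0.27 (edgeR, adjusted p = 0.0105), but the groups overlapped, and without Con mouse 201, which had the highest value, it was -0.58 (edgeR, adjusted p = 0.0369). Of its 4613 exon bases, 489 overlap with Gm29724 on the other strand.

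The remaining ADAMTS genes were mixed. Adamts17, a gene of connective tissue disorders of eye and stature, had at most 4 reads in a Con mouse and rose by 3.89 ± 0.51 on the log2 scale to 1.14 to 4.74 CPM in Ade. The COMP-cleaving enzymes Adamts7 and Adamts12 rose by 1.71 ± 0.18 and 1.62 ± 0.30, and Adamts10, which binds fibrillin, by 1.27 ± 0.14. Adamts16 rose by 0.75 ± 0.27 (edgeR, adjusted p = 0.029), with 10.7 to 30.6 CPM in Ade against 8.80 to 16.6 CPM in Con, so the groups overlapped. Adamts6 had a log2 fold change of 0.10 ± 0.20 and did not pass the test, and Adamts13, the protease of von Willebrand factor, had at most 9 reads in a mouse.

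ADAMTS-like proteins lack the protease domain and bind fibrillin microfibrils or the matrix. Adamtsl4, Adamtsl5 and Adamtsl1 rose in Ade by 1.97 ± 0.19, 1.95 ± 0.21 and 1.67 ± 0.15 on the log2 scale, and none of them overlapped with Con. Adamtsl2, known for binding a latent TGF-beta binding protein, measured 28.7 to 46.6 CPM in Con and 19.6 to 58.4 CPM in Ade, a log2 fold change of -0.21 ± 0.23 that did not pass the test but did without Ade mouse 407 (-0.44, edgeR, adjusted p = 0.0378). Adamtsl3 was too low to be tested, with 1.18 to 2.17 CPM in Con and a median of 0.664 CPM in Ade mice, whose values all lay below those of Con.

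Adding IMC to the adenine diet left most members apart from Con. Between Ade + IMC and Con mice, 28 of 36 tested members rose, 2 fell (Timp3 and Mmp13) and 6 did not pass the test (edgeR quasi-likelihood test, adjusted over 14578 genes). Over all tested genes, 63.2% passed, 30.9% higher and 32.3% lower. The 2 groups did not overlap in 26 of the 36, against 37.0% of all tested genes. Their median log2 fold change was 1.63, which setting Mmp7 to its lower bound could not move either, against -0.02 over all tested genes. Timp1 stood 5.99 ± 0.51 above Con on the log2 scale, Mmp3 5.95 ± 0.33, Mmp12 4.23 ± 0.34, Mmp2 3.40 ± 0.13 and Timp3 1.36 ± 0.14 below it. Of the genes called in Ade, Adamts8, Adamts9 and Adamts16 were not called here, with log2 fold changes of -0.30 ± 0.30, -0.0011 ± 0.15 and -0.014 ± 0.22, while Adamts14 and Mmp13 were called here alone. Being called in 1 comparison and not in the other does not show that the 2 adenine-fed groups differ, which was tested directly.

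**Figure D4:**
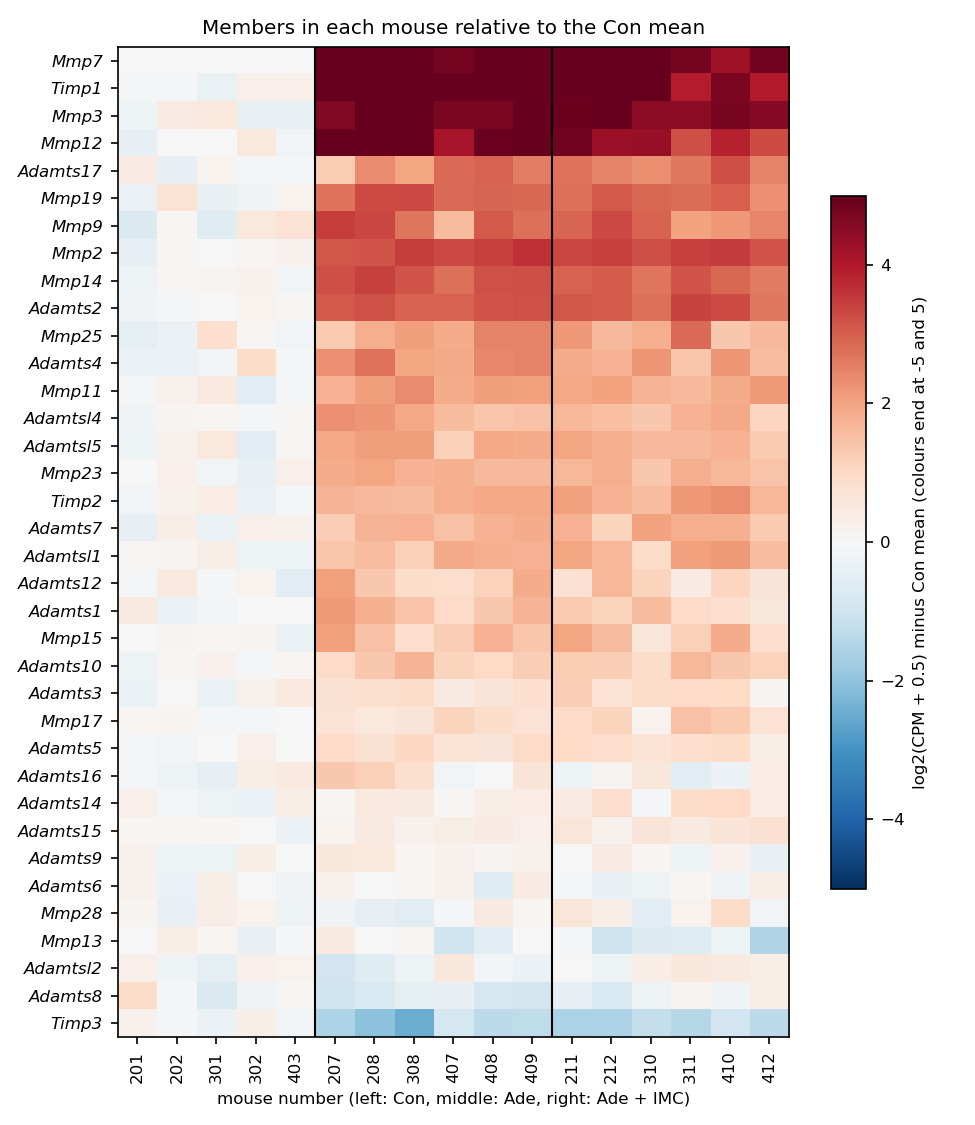
Each cell is the log2 of CPM plus 0.5 of a tested member (rows) in a mouse (columns) minus the Con mean, with colours ending at 5 in either direction. The 12 adenine-fed mice are red for the upper rows and blue for Timp3; mice 407, 311 and 412 are paler than their group for Mmp12.

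Between Ade + IMC and Ade mice no member passed the test. None of the 36 was called, as was none of 14696 genes (limma on log2 of normalized count plus 1, 0.0% called), and the adjusted p of the members was 0.643 or more. At an unadjusted p below 0.05, 7 members were lower with IMC and 3 higher, where 3.35% of all tested genes were lower and 3.37% higher at that level. The median difference was -0.14 over the 36 members and 0.0055 over all genes on the log2 scale. In no tested member did the 2 groups stand apart without overlap, against 0.225% of all genes. By edgeR on the recovered reads 0 members and 0.0% of all genes were called as well, and by DESeq2 1 member, Mmp12 (adjusted p = 0.0508), and 0.246% of all genes. With DESeq2 at the same cutoff, the paper reports both lower and higher genes in this comparison, with Timp1 among the lower. The reason for this difference was not tested.

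Mmp12, Mmp7 and Timp1 had the largest differences, all lower with IMC, while Mmp3, which had also risen steeply in Ade, differed by only -0.23 ± 0.18 (limma, adjusted p = 0.82). Mmp12 was lower in Ade + IMC by 1.23 ± 0.32 on the log2 scale (limma, adjusted p = 0.643), and 6 of 6 Ade + IMC mice were below the Ade median. Mmp7 differed by -1.03 ± 0.40 (limma, adjusted p = 0.711), with 5 of 6 mice below the Ade median, and Timp1 by -0.94 ± 0.36 (limma, adjusted p = 0.711), with 6 of 6 below it. Two-sided exact permutation tests of these single values over 924 splits of the 12 mice gave p = 0.0130 for Mmp12, 0.0584 for Mmp7 and 0.0541 for Timp1, where the smallest p possible is 0.00216 and 13 genes were tested in this way. With mice exchanged only among those that share a leading digit of their number (180 splits, smallest p 0.00556), the exact p was 0.0111 for Mmp12, 0.0278 for Mmp7 and 0.0389 for Timp1. Of the other 10 genes, Adamts8, higher with IMC, had an exact p of 0.0130 (0.0167 within digits), Adamts4 0.0346 (0.106) and Adamts15 0.0368 (0.0444). The exact p was 0.0498 for Adamts1 (0.0333 within digits) and for Mmp14 (0.05), 0.0584 for Adamts16 (0.0667) and 0.0693 for Adamtsl2 (0.0222). For Timp2, Timp3 and Timp4 it was 0.359 or more (0.111 or more within digits). These p-values are not adjusted and the genes were picked with their values known.

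The mice differed within each group. The lowest levels of Mmp7, Mmp12 and Timp1 among Ade mice were all in mouse 407, at 13.4, 61.0 and 31.0 CPM. Among Ade + IMC mice, 311, 410 and 412 held the 3 lowest values of Mmp12 (33.0, 51.0 and 34.0 CPM) and of Timp1 (14.3, 24.6 and 14.8 CPM), and of Mmp7 (13.2, 9.02 and 13.8 CPM). The same 4 mice had the lowest summed levels of 4 tubular injury markers in their groups, 393 CPM in mouse 407 against 696 to 1287 CPM in the other Ade mice, and 370.4, 389 and 291 CPM in mice 311, 410 and 412 against 579.7 to 785 CPM in the other Ade + IMC mice. Over the whole groups, the median summed level of these markers was 832 CPM in Ade and 485 CPM in Ade + IMC mice. The 5 red cell markers were all higher with IMC at an unadjusted p below 0.05 and none after adjustment (limma, median log2 difference 1.56), with summed levels of 186 to 249 CPM in Con, 15.8 to 104 CPM in Ade and 80.8 to 227 CPM in Ade + IMC mice. The part of tubular injury or of red cells in the levels of the members was not tested. Mouse 311 also had the highest summed level of 5 B and plasma cell markers, 2610.1 CPM.

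The first digit of the mouse number (2, 3 or 4) has no stated meaning, but each digit occurs in every group. Within a digit, Mmp12 was lower with IMC by 1.13, 1.65 and 1.24, Mmp7 by 1.18, 1.10 and 1.19 and Timp1 by 0.83, 1.26 and 1.08 on the log2 scale, so all 3 genes were lower in each of the 3 digits. This was not particular to them. Of the other members at an unadjusted p below 0.05, Adamts1, Adamts4, Adamts16 and Mmp14 were lower in each digit. Adamts8, Adamts15 and Adamtsl2 were higher in each. Digit 3 rests on only 1 Ade mouse, 308. With this digit as a block, limma called 1 of the 36 members, Mmp12 (adjusted p = 0.0602), where it called 0.905% of all genes, and gave an adjusted p of 0.129 for Mmp7 and 0.141 for Timp1. With the same block, in fits added after seeing the data, edgeR called 1 member, Mmp12 (adjusted p = 0.0711), and 0.71% of all genes, and DESeq2 called 5 members and 4.03% of all genes. The 5 were Mmp12 (adjusted p = 3.98e-05), Mmp7 (0.00783), Timp1 (0.0217) and Adamts1 (0.0217), all lower, and Adamtsl2 (0.0892), higher.

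Of the other members with an unadjusted p below 0.05, Adamts16 differed by -0.67 ± 0.27, Adamts1 by -0.51 ± 0.20, Adamts4 by -0.49 ± 0.18 and Mmp14 by -0.30 ± 0.12 on the log2 scale. Adamts8 differed by 0.59 ± 0.21, Adamtsl2 by 0.51 ± 0.22 and Adamts15 by 0.24 ± 0.10. All 6 Ade + IMC mice were above the Ade median for Adamts8 and for Adamtsl2, and 5 of 6 for Adamts15. The adjusted p of these 7 was 0.711 to 0.715 (limma). Mmp2 (-0.03 ± 0.10), Adamts2 (-0.07 ± 0.12), Timp2 (0.13 ± 0.13) and Timp3 (0.25 ± 0.22) were not called between the 2 groups, with an adjusted p of 0.834 or more (limma). The difference of Timp3 was uneven, at 0.25, 1.17 and -0.0082 within digits 2, 3 and 4. Mouse 308 is the only Ade mouse of digit 3.

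**Figure D5:**
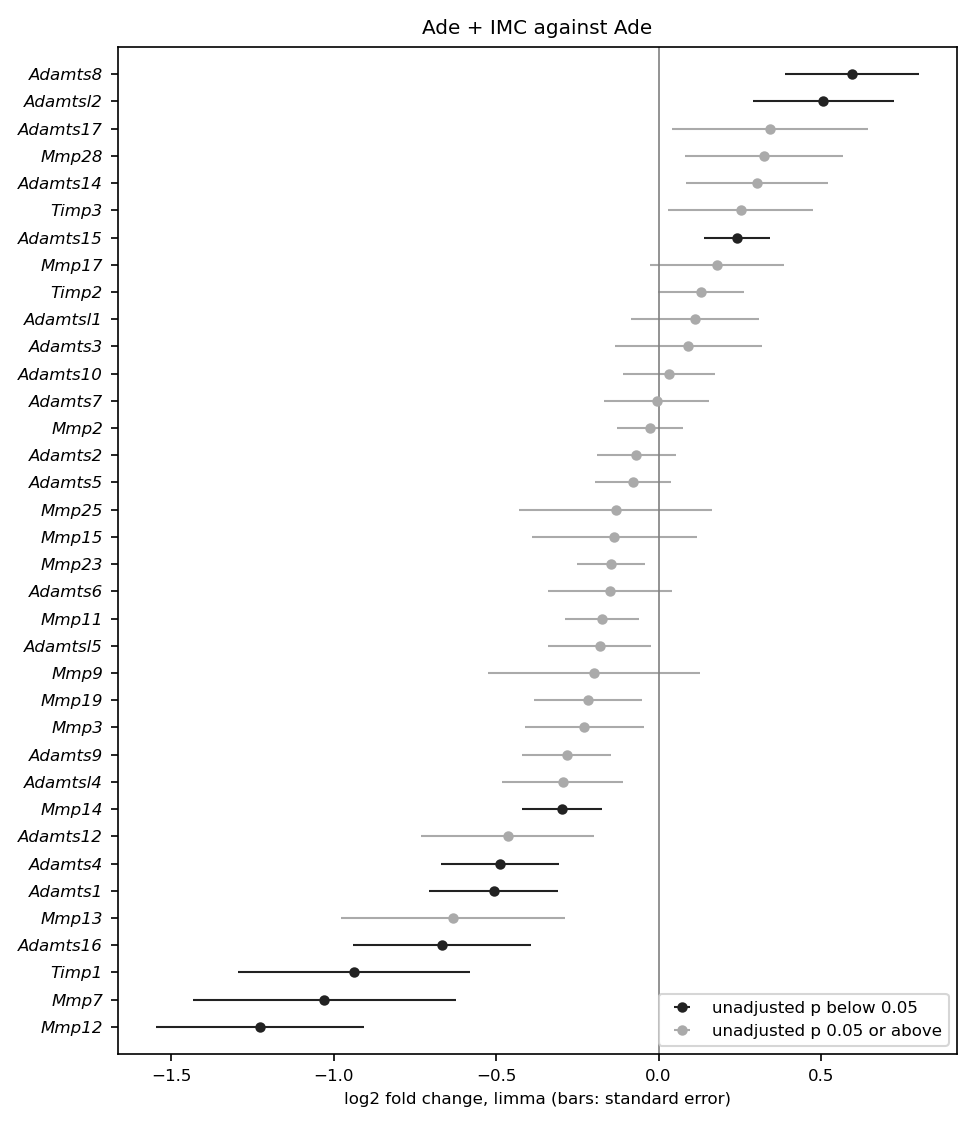
Log2 differences between the 6 Ade + IMC and the 6 Ade mice for the 36 tested members (x axis; limma, bars of 1 standard error), with members at an unadjusted p below 0.05 in black. Mmp12, Mmp7 and Timp1 lie lowest at -1.23, -1.03 and -0.94, and Adamts8 highest at 0.59; none passed the test after adjustment.

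Genes that act on the family were read from lists. All 7 AP-1 subunit genes, whose proteins bind TGANTCA, rose in Ade, from 0.83 (Jund) to 2.32 (Fos) on the log2 scale. All 7 also rose in Ade + IMC mice against Con, where 30.9% of all tested genes were higher. Of 26 tested activators and other matrix-cleaving proteases, 15 rose and 9 fell in Ade, where 35.1% of all tested genes were higher and 32.2% lower. The macrophage and osteoclast cathepsins Ctss and Ctsk rose by 3.97 and 2.75, and Adam8, a protease of leukocytes, by 3.77 on the log2 scale, whereas Mep1b, a brush border metalloprotease of the proximal tubule, was lower, at -2.53. Of 15 tested inhibitors and clearance genes outside the TIMPs, 7 rose and 3 fell, which is not far from those shares. Lcn2, which forms a complex with MMP9, rose by 6.96 and Spock2, a proteoglycan that modulates MMP activation, by 2.55, while Tfpi2, a serine protease inhibitor, was lower, at -1.19 on the log2 scale. Among 18 tested substrates 15 rose and 2 fell, with Fbn2 (6.09), Spp1 (2.81), Fn1 (2.76) and Dcn (2.53) among those that rose and Comp (-1.18), cut by Adamts7 and Adamts12, among those that fell. None of the genes on these 4 lists passed the test between Ade + IMC and Ade mice, where at an unadjusted p below 0.05 the numbers lower and higher were 0 and 0 for AP-1, 1 and 2 for the proteases, 1 and 0 for the inhibitors and 3 and 0 for the substrates (limma), against 3.35% of all tested genes lower and 3.37% higher.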

How the data were processed

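Kidney RNA-seq (50-base single-end reads, TruSeq libraries from frozen kidney) of 17 mice was analysed from 2 tables. For Con and Ade mice the authors deposited raw counts per gene, and for Ade and Ade + IMC mice counts normalized with DESeq2 size factors, a signal in units of reads divided by a factor per mouse. The methods name STAR and mm10, while the submitters' processing notes name Trimmomatic 0.39, FastQC 0.11.8, Bowtie2 2.2.5 and HTSeq 0.9.1, so the aligner behind the tables is not settled. A further table of fold changes and p-values from the authors' own comparison was read for gene names only. Dividing normalized counts by each mouse's smallest value above 0 returned whole reads for 100.0% of values (tolerance 0.001), and for the shared Ade mice these differed from the raw counts in 0 values. The raw table lists genes with 5 or more reads in all.

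Ade and Ade + IMC mice were each compared with Con by edgeR 4.0.16 (quasi-likelihood test, TMM scaling, filterByExpr), for Ade + IMC on recovered reads over the 20634 shared genes. Ade + IMC was compared with Ade by limma 3.58.1 (trend) on log2(normalized count + 1), keeping genes with a mean of at least 10. P-values were adjusted by Benjamini-Hochberg over all genes tested and called below 0.1. Fold changes from limma are on the log2(value + 1) scale, which understates those of low genes. CPM used TMM factors over all 17 mice. Alternatives were DESeq2 1.42.0, other scalings, pseudocounts and filters, a block on the first digit of the mouse number and leaving out each mouse. Gene positions and exon lengths came from GENCODE (GRCm38), promoter windows from RefSeq. Scripts were tested on simulated data. No 2 mice of a group agreed within sampling noise (lowest chi-square per degree of freedom 4.21). Replicate numbers were given in order of the samples and pair nothing; the mice are separate animals. Floors cover counting error only.

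Named with values were the 4 TIMPs, members called between Ade and Con with a log2 fold change of at least 1 in size, members at an unadjusted p below 0.05 between Ade + IMC and Ade, and Havcr1; every other member given with values was added after its values were seen. The members and gene lists were chosen with earlier results of these data known.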

Additional observations from a re-analysis of the deposited data

Results flagged for a closer look

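In 86 groups of 5 or 6 mice (29 named members), 4 single mice lay far from the rest of their group by Dixon's test, about the number that chance gives at 1 in 20. Timp4 was 3.71 CPM in Ade + IMC mouse 212, against 0 to 1.15 CPM in the other 5. Adamts4 was 4.81 CPM in Con mouse 302, against 1.72 to 2.09 CPM in the other 4. Adamts17 was 5.73 CPM in Ade + IMC mouse 410, against 2.90 to 3.87 CPM, and Adamtsl5 was 12.9 CPM in Ade mouse 407, against 20.3 to 24.2 CPM in the other 5. Without mouse 212 the mean of Timp4 in Ade + IMC mice was 0.631 CPM in place of 1.14 CPM.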

How the results depend on the processing

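The number of members called between Ade and Con was 31, where 67.3% of all tested genes were called. It ranged from 30 to 37 over all alternatives, the 37 coming from DESeq2 and from the fit without a filter, which tested more members. Between Ade + IMC and Con it was 30, where 63.2% of all tested genes were called, and ranged from 30 to 36. These shares belong to the main fits. Without any single mouse the counts were 30 to 32 and 30 to 31. The calls that changed were Adamts9 in Ade (lost without Con mouse 202 or 301), Adamts14 in Ade (gained without Con mouse 403, adjusted p = 0.0833, and with upper-quartile scaling, 0.0996) and Adamtsl2 (gained in Ade without mouse 407, 0.0378, and in Ade + IMC without mouse 212, 0.0973). Between Ade + IMC and Ade the count was 0 and stayed 0 without any 1 mouse, with other pseudocounts, with TMM scaling, without a filter and by edgeR. It was 1 by DESeq2 (0.246% of all genes called) and 1 with the block on the first digit of the mouse number (0.905%). At an unadjusted p below 0.05 it was 10, where 3.35% of all tested genes were lower and 3.37% higher. Alternatives added after seeing the data were the block in edgeR, which called 1 member (Mmp12, adjusted p = 0.0711) and 0.71% of all genes, and in DESeq2, which called 4.03% of all genes and 5 members: Mmp12 (3.98e-05), Mmp7 (0.00783), Timp1 (0.0217) and Adamts1 (0.0217) lower and Adamtsl2 (0.0892) higher. The cause of these differences was not tested. No paired analysis was possible because the labels number no replicates; the block changed no call against Con. Between Ade + IMC and Con, Adamts16 was near 0 and changed sign, to 0.0019 with RLE scaling, 0.067 with upper-quartile scaling, 0.024 in a fit over 3 groups and between -0.14 and 0.12 without single mice, and Adamts8 lay between -0.46 and, without Con mouse 201, 0.035. The mean Timp1 share of TIMP reads was 0.0303%, 7.07% and 3.39% in Con, Ade and Ade + IMC mice and 0.261%, 31.1% and 18.0% per kilobase of exon; without 1 mouse it was 0.0265% to 0.0328%, 5.90% to 7.95% and 2.83% to 3.77%. A count of 3 reads is 0.501 CPM in the smallest library, and the 11 untested members rest on few reads.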
